A study of Mus musculus with 12 samples.

Results

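The 7 mature miRs described here are the miR-125 and miR-99/100 products mmu-miR-125a-5p, mmu-miR-125a-3p, mmu-miR-125b-5p, mmu-miR-99a-5p, mmu-miR-99b-5p, mmu-miR-99b-3p and mmu-miR-100-5p (written below without the mouse prefix), whose genes lie beside let-7 genes in the mouse genome. They were taken by name from the 1927 mature miRs of a miR-seq count table of fetal mouse liver, with no measured value in the rule, and all 7 have an entry there. The table compares livers of 5 wild-type (WT) and 7 Mir483Pat-KO female fetuses at E18.5, shortly before birth, on a C57BL/6J background, with 1 library per fetus. Mir483Pat-KO fetuses inherited from the father a constitutive deletion of *Mir483*, an imprinted miR gene inside *Igf2*, which had been made with Cre in embryonic stem cells and so is present in every cell. Whole liver was sampled, so that fewer cells of a type and less RNA per cell cannot be told apart. The comparison asks which other miRs differ in a liver that lacks *miR-483*.

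A miR is cut from a hairpin RNA as a 5p arm and a 3p arm, and it guides the silencing machinery to transcripts that pair with its seed, bases 2 to 8 of the mature miR. The miR-125 family descends from the same ancestor as lin-4 of the worm, the founding miR of developmental timing, and in vertebrates its genes sit with those of the let-7 and miR-99/100 families. *miR-125a* and *miR-125b* are known for roles in blood stem cells and for repressing *Lin28a*, the RNA-binding protein that blocks let-7 maturation. The miR-99/100 family is known for repressing *Mtor* and *Igf1r*, which act in growth factor signalling.

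The mature sequences are shown because the families are defined by their seed and because the close relatives have to be told apart by the bases outside it. They are RefSeq sequences on GRCm38.p6, in which all 7 members were found, written 5′ to 3′ with the seed in capitals. The miR-125 arms, with *miR-351-5p*, a rodent miR of the X chromosome that has the same seed, are:
miR-125a-5p: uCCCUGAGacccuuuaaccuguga
miR-125b-5p: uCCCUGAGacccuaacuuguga
miR-351-5p: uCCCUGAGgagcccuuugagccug
miR-125a-3p: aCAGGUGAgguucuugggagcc

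The miR-99/100 arms, with the cluster partner *let-7e-5p* for comparison, are:
miR-99a-5p: aACCCGUAgauccgaucuugug
miR-99b-5p: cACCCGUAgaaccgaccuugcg
miR-100-5p: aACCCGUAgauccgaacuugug
miR-99b-3p: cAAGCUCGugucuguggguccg
let-7e-5p: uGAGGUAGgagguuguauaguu

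*miR-125a-5p* and *miR-125b-5p* are identical over the first 13 bases, while *miR-125a-5p* and *miR-351-5p* part after base 8. *miR-100-5p* differs from *miR-99a-5p* at a single base, U16A counted from the 5′ end with the base of *miR-99a-5p* first. *miR-99b-5p* differs from *miR-99a-5p* at 4 of 22 bases (A1C, U11A, U16C and U21C, counted the same way), none of them in the seed. A read with an error at base 16 could therefore move between *miR-99a-5p* and *miR-100-5p*, and how the counting treated such reads was not given in the sources used here.

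The members come from 3 clusters, located here with the GENCODE M21 annotation of GRCm38. On the plus strand of chromosome 17, *Mir99b* (chr17:17830188-17830257), *Mirlet7e* (chr17:17830352-17830444) and *Mir125a* (chr17:17830812-17830879) lie within 692 bases of each other inside *Spaca6*. *Mir99b* and *Mirlet7e* are intronic there, and *Mir125a* overlaps an exon of an annotated *Spaca6* transcript. On chromosome 16, *Mir99a* (chr16:77598936-77599000), *Mirlet7c-1* and *Mir125b-2* (chr16:77646273-77646343) lie in introns of the non-coding gene *Mir99ahg*, with 47272 bases between *Mir99a* and *Mir125b-2*. On chromosome 9, *Mir100* (chr9:41531425-41531504), *Mirlet7a-2* and *Mir125b-1* (chr9:41581926-41582002) lie in introns of the non-coding gene *3110039I08Rik*, with 50421 bases between *Mir100* and *Mir125b-1*. *Mir125b-1* also falls in an exon of *Gm28119*. *miR-125b-5p* is made from both *Mir125b-1* and *Mir125b-2*, so its count cannot be assigned to either locus. The *mir-125a* stem-loop is shown with its arms in capitals, since *miR-125a-5p* had the lowest p of the tested members:
mir-125a: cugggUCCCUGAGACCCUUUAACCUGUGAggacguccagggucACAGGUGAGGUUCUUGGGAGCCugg

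Libraries held 658665 to 1211160 counts, and 3 counts corresponded to 2.57 to 4.67 CPM (reads of a miR per total reads of its library, after TMM scaling), a floor that covers counting error only. The deleted gene checked the labels, with 733 to 1281 reads of *miR-483-3p* in WT and 0 to 19 in Mir483Pat-KO. Of 682 miRs with any count, 388 passed the filter on low counts and were tested (edgeR, quasi-likelihood F-test, p-values adjusted by Benjamini and Hochberg). At an adjusted p under 0.05, 8 were called, which is 2.06%, with both arms of the deleted *miR-483* among them. The library index numbers are 37 to 41 for WT and 42 to 48 for Mir483Pat-KO, so genotype and index order cannot be told apart. The defining miR of hepatocytes, *miR-122-5p*, was at 126671 to 161040 CPM in WT and 118505 to 169654 CPM in Mir483Pat-KO.

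The 7 members together took 0.293% to 0.419% of the counts of a library. The 4 arms of the chromosome 17 genes *Mir99b* and *Mir125a* held most of this, and *miR-99b-5p* alone made up 77.9% to 82.3% of the member reads. Across the 12 libraries *miR-99b-5p* was at 2819 ± 220 CPM (SD, n = 12), rank 41 among the 682 miRs with a count. *miR-125a-5p* followed at 324 ± 50.6 CPM and *miR-99a-5p* at 202 ± 21.7 CPM (SD, n = 12 each). *miR-99b-3p* was at 84.4 ± 13.2 CPM, *miR-125b-5p* at 38.99 ± 9.02 CPM, *miR-125a-3p* at 24.3 ± 6.77 CPM and *miR-100-5p* at 7.62 ± 6.60 CPM (SD, n = 12 each). The mature miRs have nearly the same length, so these levels were not divided by it, and unequal capture of different miRs in library preparation was not measured.

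The order of the upper 5 was the same in each of the 12 libraries, and their ranges over the libraries did not overlap. *miR-99b-5p* was 8.71 times *miR-125a-5p*, which in turn was 1.60 times *miR-99a-5p*. The neighbours *miR-125b-5p* and *miR-125a-3p* overlapped in range, with *miR-125b-5p* the higher in 11 of 12 libraries. The ranges of *miR-125a-3p* and *miR-100-5p* overlapped as well.

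**Figure D1:**
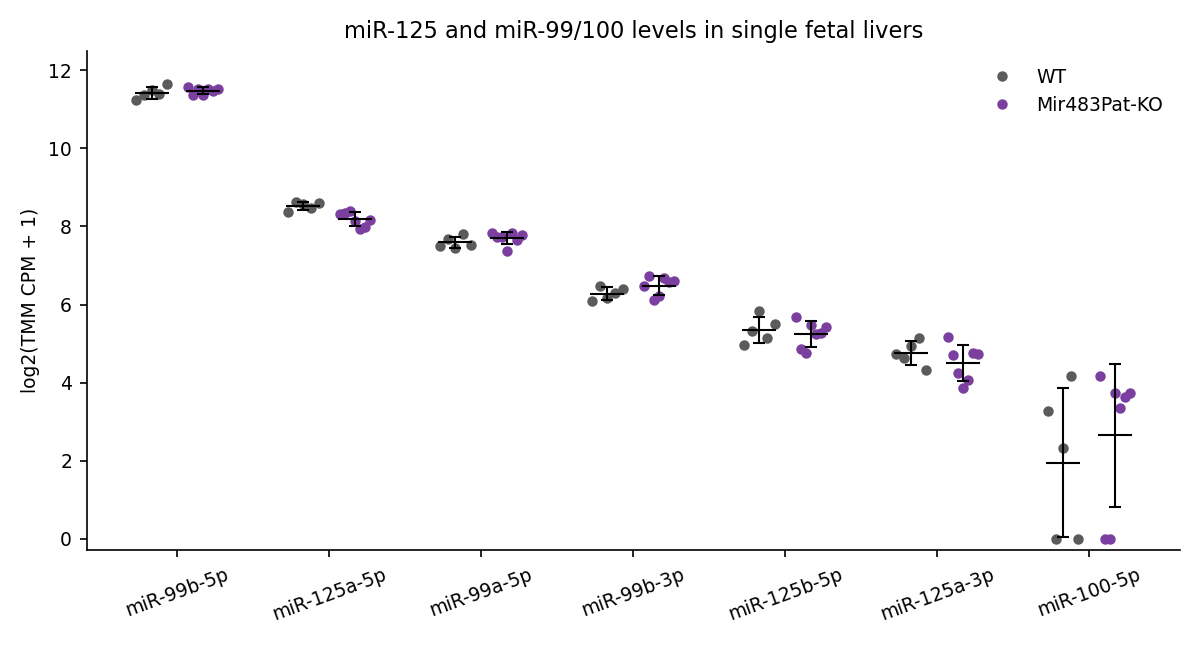
Level of the 7 members in each fetal liver, as log2(TMM CPM + 1), in WT (grey, n = 5) and Mir483Pat-KO (purple, n = 7). Each point is 1 library, the bar is the mean and the whiskers are the SD. *miR-99b-5p* stands above the rest, the purple points of *miR-125a-5p* sit lower than the grey ones except for Mir483Pat-KO 3, and *miR-100-5p* is at 0 in 4 libraries.

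None of the 6 members that were tested was called, against 2.06% of all miRs tested (1.03% higher and 1.03% lower in Mir483Pat-KO). The lower share includes both arms of the deleted *miR-483*. The log2 fold change of Mir483Pat-KO over WT was positive for 3 members and negative for 3, with a median of -0.03, beside 0.0028 over all 388 miRs. Of the 6, only *miR-125a-5p* had an unadjusted p under 0.05, which 17.5% of all miRs tested had (7.99% with a lower level in Mir483Pat-KO).

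*miR-125a-5p* was at 330.3, 395, 378, 357 and 385 CPM in WT livers 1 to 5. In Mir483Pat-KO livers 1 to 7 it was at 319, 325, 334, 281, 243, 251 and 286 CPM. Thus 6 of 7 Mir483Pat-KO libraries were below every WT library, and Mir483Pat-KO 3 was just above WT 1. Such a separation, in this direction, was found for 11 of the 388 miRs tested, or 2.84%. WT averaged 369 ± 25.9 CPM (SD, n = 5) and Mir483Pat-KO 291 ± 36.0 CPM (SD, n = 7), from 185 to 385 reads a library. The log2 fold change was -0.34 (standard error 0.089, 95% interval -0.53 to -0.15), and it did not pass the test (edgeR adjusted p = 0.0620, unadjusted p = 0.00144), ranking 9 of 388 by p.

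The call for *miR-125a-5p* turned on the processing. It was called under 6 of 13 alternative settings, with adjusted p from 0.0121 (DESeq2) to 0.980 over the 13 edgeR, DESeq2 and limma fits. The highest came with library index number as a covariate, where the log2 fold change was -0.14 (standard error 0.16). With genotype alone the standard error was 0.089. Index numbers separate the genotypes fully, so this fit cannot part index order from genotype. By animal number, Mir483Pat-KO livers of the lower range were at 280.5 to 334 CPM (n = 4) and those of the upper range at 243 to 286 CPM (n = 3). The WT livers were at 330.3 to 395 CPM in the lower range (n = 4) and at 385 CPM in the upper range (n = 1). Within the lower range the log2 fold change was -0.23 (standard error 0.088, edgeR unadjusted p = 0.0251, adjusted p = 0.497). With the range as a factor in the fit of all libraries it was -0.31 (standard error 0.085, edgeR adjusted p = 0.0941). Beyond these fits, the part that the animal range or the index order had in the difference was not tested.

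The other arm of the same hairpin, *miR-125a-3p*, was at 26.4 ± 5.73 CPM in WT (SD, n = 5) and 22.7 ± 7.45 CPM in Mir483Pat-KO (SD, n = 7). WT libraries lay between 19.1 and 34.2 CPM and Mir483Pat-KO libraries between 13.6 and 35.1 CPM, so the genotypes overlapped. Its log2 fold change was -0.22 (standard error 0.25, edgeR adjusted p = 0.736), and its 95% interval, -0.75 to 0.32, spans that of *miR-125a-5p*. With 10 to 32 reads a library, a difference of the size seen for *miR-125a-5p* was not detectable for *miR-125a-3p* at this depth.

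*miR-125b-5p*, a paralog known from blood cell development, was low in these livers. It was at 30.0, 39.1, 56.3, 34.2 and 44.3 CPM in WT and at 50.5, 28.0, 25.8, 43.4, 36.8, 37.3 and 42.1 CPM in Mir483Pat-KO. The genotypes overlapped over most of their ranges. The log2 fold change was -0.10 (standard error 0.20, 95% interval -0.53 to 0.32, edgeR adjusted p = 0.855).

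*miR-99b-5p*, the most abundant member, was at 2409, 2652, 2869, 2698 and 3215 CPM in WT, and at 2627 to 3057 CPM in Mir483Pat-KO with a median of 2917. Every Mir483Pat-KO library fell inside the WT range. With 1707 to 3197 reads a library, this was the member with the least spread, a coefficient of variation of 7.80% over the 12 libraries. Its log2 fold change was 0.044 (standard error 0.071, 95% interval -0.11 to 0.19, edgeR adjusted p = 0.823), and the sign was negative when counts were scaled by library size alone (-0.028). The other arm, *miR-99b-3p*, was at 77.2 ± 8.48 CPM in WT (SD, n = 5) and 89.6 ± 14.0 CPM in Mir483Pat-KO (SD, n = 7). WT libraries lay between 66.9 and 87.5 CPM and Mir483Pat-KO libraries between 68.5 and 105.9 CPM, so the ranges overlapped. Even so, 5 of 7 Mir483Pat-KO libraries were above every WT library, and the share of all miRs with such a separation was not counted. This difference did not pass the test either (log2 fold change 0.21, standard error 0.13, edgeR adjusted p = 0.453).

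*miR-99a-5p*, from the chromosome 16 cluster, was at 178, 205, 174, 223 and 183 CPM in WT. In Mir483Pat-KO it was at 165 to 227 CPM with a median of 212. The log2 fold change was 0.11 (standard error 0.094, 95% interval -0.087 to 0.31, edgeR adjusted p = 0.606), and the ranges overlapped.

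*miR-100-5p*, the member from chromosome 9, did not pass the filter on low counts. Its reads were 10, 0, 3, 16 and 0 in WT and 12, 0, 0, 9, 7, 10 and 9 in Mir483Pat-KO. The mean was 5.94 ± 7.17 CPM (SD, n = 5) and 8.82 ± 6.44 CPM (SD, n = 7), with libraries at 0 in both genotypes. A count of 0 allows up to 3 counts, yet among all entries of the file 199 of 863 entries predicted at 5 to 10 reads from the other libraries of the genotype were listed at 0, where 1.33 would be expected from Poisson counting. The lowest count above 0 in the table is 2. The 4 zeros of *miR-100-5p* therefore cannot be read as a level below the floor, and no direction was drawn from them.

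**Figure D2:**
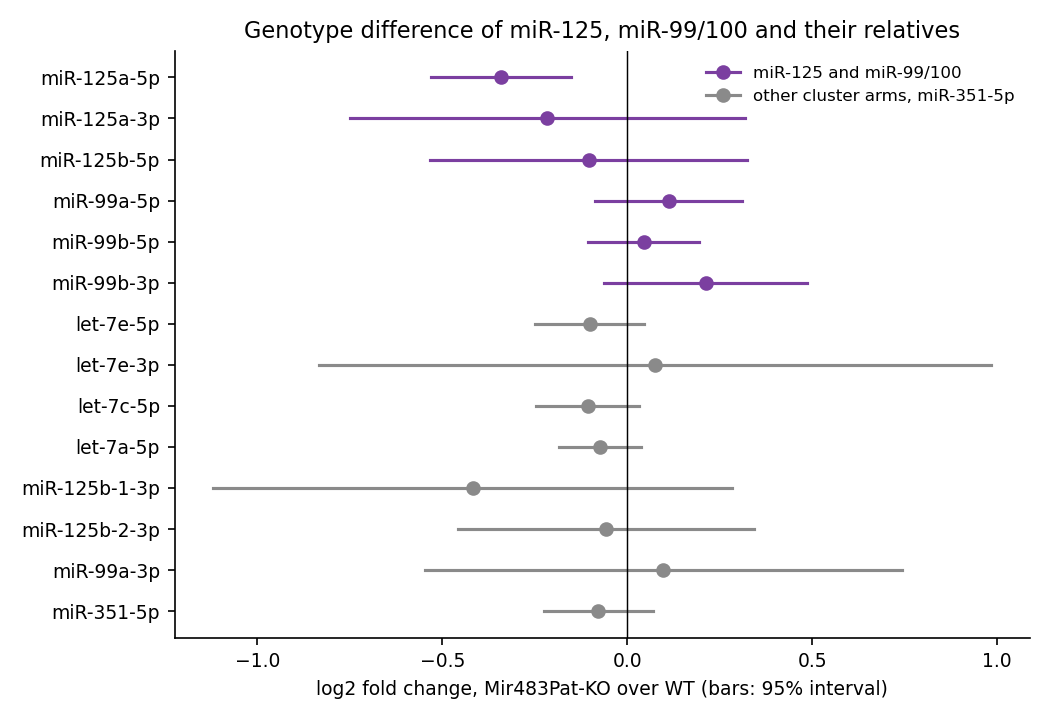
Log2 fold change of Mir483Pat-KO over WT from edgeR for the 6 tested members (purple) and for 7 other arms of the same clusters and *miR-351-5p* (grey). Points are estimates and lines 95% intervals. The interval of *miR-125a-5p*, -0.53 to -0.15, lies left of 0, and the others all cross 0, none of the 14 being called after adjustment.

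The other products of the 3 clusters were followed as a list of 10 arms, of which 7 were tested and 0 were called by edgeR (0 also at an unadjusted p under 0.05, and 0 by DESeq2 and by limma-voom). Of the 7, 2 had a positive and 5 a negative log2 fold change, with a median of -0.075 beside 0.0028 over all 388 miRs. *let-7e-5p*, which the table joins with let-7k in 1 entry, lies between *Mir99b* and *Mir125a* and was at 1722 ± 95.7 CPM in WT (SD, n = 5) and 1606 ± 134 CPM in Mir483Pat-KO (SD, n = 7). Its log2 fold change was -0.10 (standard error 0.069, edgeR adjusted p = 0.487). *let-7c-5p* and *let-7a-5p*, the partners on chromosomes 16 and 9, had log2 fold changes of -0.11 and -0.075. Both also come from another gene outside these clusters, so neither the 2312 CPM mean of *let-7c-5p* nor the 16724 CPM mean of *let-7a-5p* can be assigned to a cluster, which limits the correlation of *let-7c-5p* with *miR-99a-5p* given below. Not tested were *let-7c-1-3p* with 56 reads in all, *let-7a-2-3p* with 4 and *miR-100-3p* with 3.

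The share of reads on each arm varied between the hairpins. With 2 counts added to each, *miR-125a-5p* exceeded *miR-125a-3p* by 8.48 to 18.3 times in every library, and *miR-99b-5p* exceeded *miR-99b-3p* by 24.4 to 41.2 times. *miR-99a-5p* had 13.8 ± 4.37 times the reads of *miR-99a-3p* (SD, n = 12). *miR-125b* was the exception, since *miR-125b-5p* had 0.748 ± 0.219 times (SD, n = 12) the summed reads of *miR-125b-1-3p* and *miR-125b-2-3p*, and more reads than the 3p arms together in 2 of 12 libraries only. *miR-125b-5p* had 18 to 44 reads a library. These are ratios of reads, and unequal capture of the arms was not measured.

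The 3p arms of miR-125b differ in sequence between the 2 genes and so carry the locus that the shared 5p arm does not. *miR-125b-2-3p*, from chromosome 16, exceeded *miR-125b-1-3p*, from chromosome 9, in 12 of 12 libraries, by 1.30 to 5.75 times. *miR-125b-1-3p* was at 22.7 ± 6.05 CPM in WT (SD, n = 5) and 16.97 ± 7.87 CPM in Mir483Pat-KO (SD, n = 7), a log2 fold change of -0.42 (standard error 0.33, edgeR adjusted p = 0.572). *miR-125b-2-3p* was at 36.0 ± 7.02 and 34.3 ± 7.56 CPM. *miR-99a-5p*, from chromosome 16, had a higher mean than *miR-100-5p*, from chromosome 9 (202 and 7.62 CPM). *miR-100-5p* had 0 to 16 reads a library and unequal capture was not measured, so no order of the clusters was read from this pair.

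**Figure D3:**
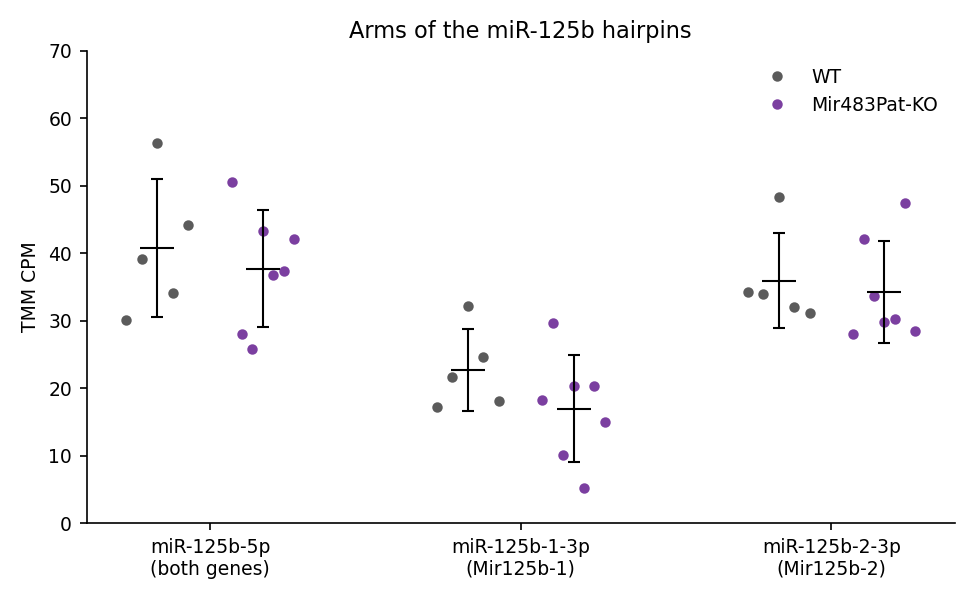
TMM CPM of *miR-125b-5p*, which both genes encode, and of the gene-specific arms *miR-125b-1-3p* and *miR-125b-2-3p* in WT (grey, n = 5) and Mir483Pat-KO (purple, n = 7). Points are libraries, bars means and whiskers SD. The 5p arm is no higher than the 3p arms together in most libraries, and the genotypes overlap in each arm.

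By locus, the arms of *Mir99b* and *Mir125a* on chromosome 17 had 13.6 ± 1.78 times (SD, n = 5) the summed reads of *miR-125b-5p*, *miR-99a-5p* and *miR-100-5p* in WT livers, with a range of 11.5 to 16.3. In Mir483Pat-KO the ratio was 12.8 ± 0.815 (SD, n = 7), with a range of 11.9 to 14.1. The ranges overlapped, with that of Mir483Pat-KO inside that of WT. This is a ratio of members and not of whole loci, since the sum leaves out the 3p arms of its genes. Over all libraries these had 195 (*miR-125b-1-3p*), 355 (*miR-125b-2-3p*), 158 (*miR-99a-3p*) and 3 (*miR-100-3p*) reads, beside 2513 for the sum. With 5p arms alone on chromosome 17 the ratio was 13.2 ± 1.77 in WT (SD, n = 5) and 12.4 ± 0.835 in Mir483Pat-KO (SD, n = 7).

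The seed sequences printed above give the share of each family that a member holds. Among the miRs with the miR-125 seed, *miR-351-5p* held 93.6% ± 0.67 of the reads, *miR-125a-5p* 5.75% ± 0.71 and *miR-125b-5p* 0.690% ± 0.13 (SD, n = 12 each). *miR-6367* and *miR-6394*, which share the seed too, had no read in any library. So the 5p arms named miR-125 were a minor part of the reads with their own seed, which summed to 5625 CPM. In the miR-99/100 family, *miR-99b-5p* held 93.1% ± 0.76, *miR-99a-5p* 6.68% ± 0.68 and *miR-100-5p* 0.253% ± 0.22 of the reads (SD, n = 12 each), for a sum of 3029 CPM. *miR-99b-3p* held 84.1% ± 4.14 (SD, n = 12) of the reads with its seed, which it shares with *miR-99a-3p*. No other miR of the table had the seed of *miR-125a-3p*. *miR-351-5p* was at 5429 ± 423.3 CPM in WT (SD, n = 5) and 5144 ± 431 CPM in Mir483Pat-KO (SD, n = 7), a log2 fold change of -0.078 (standard error 0.070, edgeR adjusted p = 0.661).

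**Figure D4:**
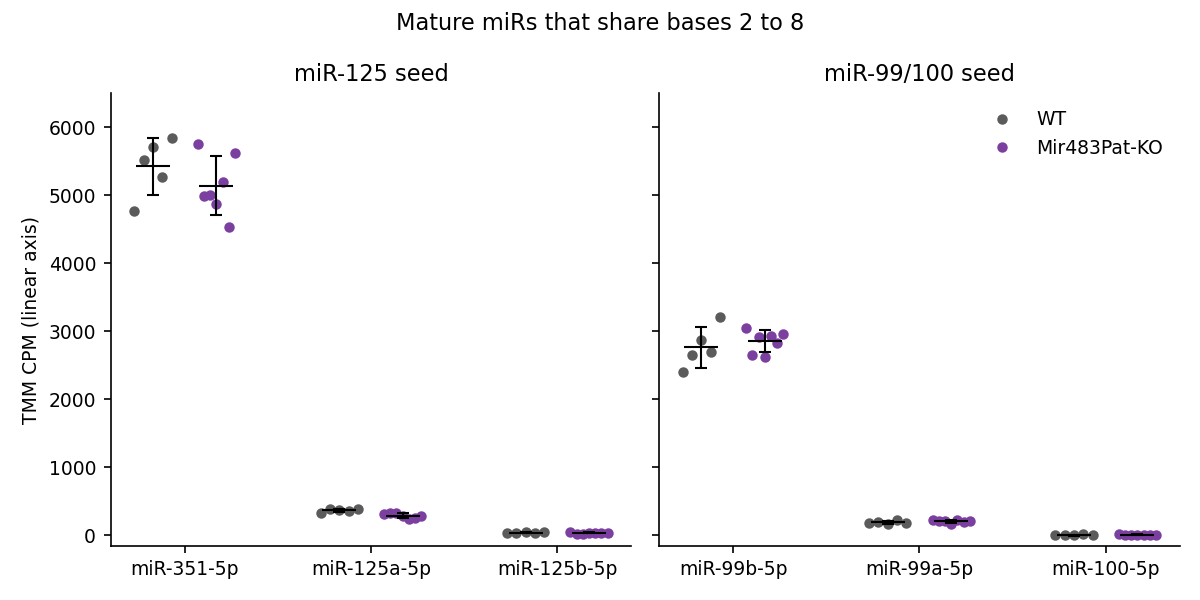
TMM CPM on a linear axis of the miRs that share the miR-125 seed (left) and the miR-99/100 seed (right) in WT (grey, n = 5) and Mir483Pat-KO (purple, n = 7). Points are libraries, bars means and whiskers SD. *miR-351-5p* and *miR-99b-5p* hold 93.6% and 93.1% of the reads of their families.

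Ratios of 2 miRs within a library do not depend on scaling between libraries, and 9 of them were compared between the genotypes on the log2 scale, again with 2 counts added to each. A pair of them, both with *miR-125a-5p*, had an adjusted p under 0.05 over the 9. The count ratio of *miR-125a-5p* to *miR-99b-5p* was 0.1203 to 0.150 in WT and 0.0835 to 0.123 in Mir483Pat-KO, and 6 of 7 Mir483Pat-KO libraries were below every WT library. Its log2 mean was -2.90 ± 0.11 (SD, n = 5) and -3.29 ± 0.20 (SD, n = 7), a difference of -0.39 (standard error 0.091; two-sided exact permutation test, p = 0.00505, adjusted p = 0.0284 over the 9). These ratios contain the same *miR-125a-5p* counts as the fold change above and are no independent evidence of it.

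Read against the whole table, this ratio was less particular. When every other miR tested was divided by *miR-99b-5p* in the same way, 43 of 387 ratios (11.1%) had an exact permutation p under 0.05, 10 had a p at or under that of *miR-125a-5p*, and none had an adjusted p under 0.05 over the 387 (adjusted p = 0.195 for *miR-125a-5p*).

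*let-7e-5p* over *miR-125a-5p*, its neighbour on chromosome 17, had a count ratio of 4.04 to 4.98 in WT and 4.88 to 6.65 in Mir483Pat-KO, with 6 of 7 Mir483Pat-KO libraries above every WT library. The log2 difference was 0.24 (standard error 0.074; two-sided exact permutation test, p = 0.00631, adjusted p = 0.0284 over the 9). With *miR-125a-5p* as the divisor of all 387 other miRs, 182 ratios (47%) had an exact permutation p under 0.05 and 121 (31.3%) an adjusted p under 0.05, among them *let-7e-5p* (adjusted p = 0.0339) and *miR-99b-5p* (adjusted p = 0.0320). The ratios to *miR-125a-5p* thus differed for many miRs of the table, not for its cluster partners in particular. With library index number as a covariate the difference of *miR-125a-5p* over *miR-99b-5p* was -0.035 (standard error 0.15), and within the lower animal-number range it was -0.29 (two-sided exact permutation test, 4 against 4, p = 0.0286, the smallest p that this number of livers allows).

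The third ratio of the cluster, *let-7e-5p* over *miR-99b-5p*, differed by -0.15 (standard error 0.073; two-sided exact permutation test, p = 0.0833, adjusted p = 0.250 over the 9). The remaining 6 ratios, between paralogs, arms and partners, had adjusted p of 0.418 to 0.540. Among them, *miR-99b-5p* over *miR-99a-5p* was 11.99 to 17.4 in WT and 12.4 to 15.7 in Mir483Pat-KO, and *miR-125a-5p* over *miR-125b-5p* was 6.45 to 10.5 and 6.03 to 11.96.

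**Figure D5:**
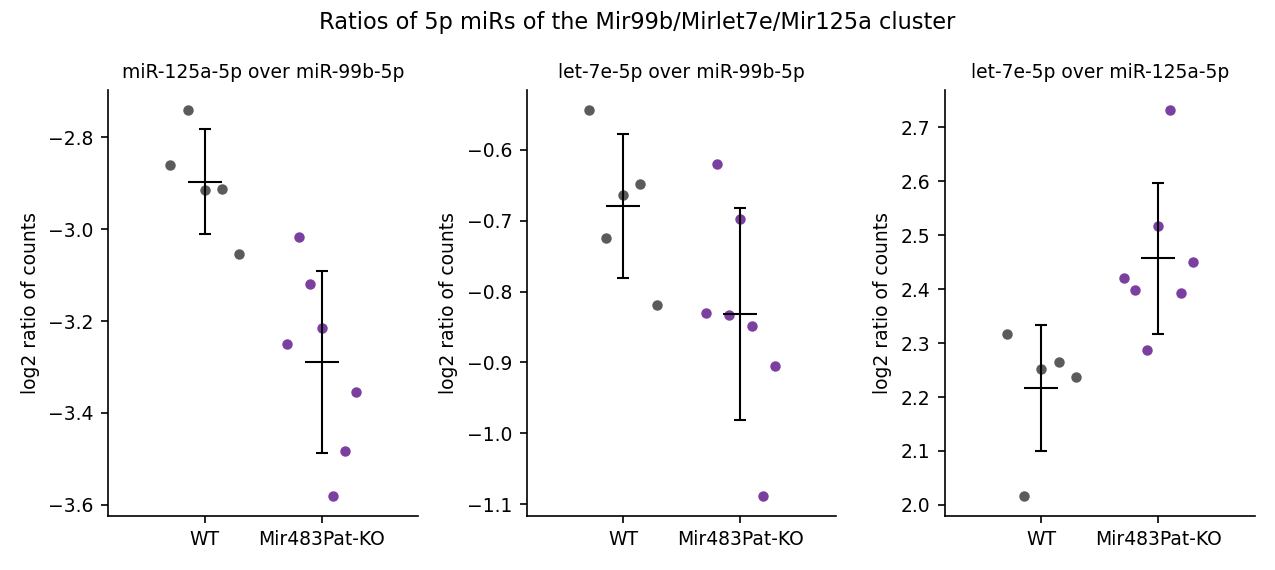
Log2 ratio of counts, with 2 added, for each pair of 5p miRs of the chromosome 17 cluster in WT (grey, n = 5) and Mir483Pat-KO (purple, n = 7). Points are libraries, bars means and whiskers SD. The mean of *miR-125a-5p* over *miR-99b-5p* is -2.90 in WT and -3.29 in Mir483Pat-KO, and 6 of 7 Mir483Pat-KO points lie outside the WT range in the panels with *miR-125a-5p*.

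Whether cluster partners varied together from fetus to fetus was examined in 5 pairs over the 12 libraries, with each genotype's mean subtracted. *miR-125a-5p* and *miR-99b-5p*, whose hairpin genes have 554 bases between them, had Pearson r = 0.23 (permutation p = 0.403, adjusted p = 0.663 over the 5) and Spearman rho = 0.20 (permutation p = 0.514). *miR-125a-5p* and *let-7e-5p* had r = 0.55 (permutation p = 0.0870, adjusted p = 0.435) and rho = 0.59 (permutation p = 0.0578, adjusted p = 0.289). Without the 2 libraries farthest from the median of *miR-125a-5p*, these r were 0.48 and 0.40. Within the lower animal-number range (n = 8) they were 0.62 (rho = 0.48, permutation p = 0.146 for r) and 0.20 (rho = 0.095, permutation p = 0.661 for r), so the order of the pairs turned. The pairs *miR-99b-5p* with *let-7e-5p*, *miR-125b-5p* with *miR-99a-5p* and *miR-99a-5p* with *let-7c-5p* had r of 0.32, -0.21 and -0.086. None of the 5 passed the test.

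The miRs whose pattern over the 12 libraries was most like that of *miR-125a-5p*, among 197 with a mean of at least 100 CPM, were *miR-423-5p* (r = 0.76), *miR-329-3p* (r = 0.73) and *miR-148a-5p* (r = 0.72). *let-7e-5p* came at place 9 and *miR-99b-5p* at place 63. For *miR-99b-5p* they were *miR-495-3p* (r = 0.79), *miR-433-3p* (r = 0.78) and *miR-351-5p* (r = 0.74), with *miR-125a-5p* at place 52. These r are descriptions over libraries that share depth and scaling.

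miR-125 and miR-99/100 members are expressed in blood and stromal cells as well as in hepatocytes, and the marker miRs of such cells were read beside them. The summed level of 4 erythroid miRs was 23817 to 31943 CPM in WT and 25894 to 37776 CPM in Mir483Pat-KO. That of 5 white blood cell miRs was 11328 to 14581 and 13109 to 14799 CPM, with 2 of the 5 at 0 in at least 1 library. The 5 stellate and mesenchymal miRs summed to 30327 to 34307 and 31112 to 36222 CPM, and the 2 endothelial miRs to 951 to 1260 and 724 to 1219 CPM. Single tested markers had log2 fold changes of 0.10 to 0.34 (erythroid) and 0.11 to 0.17 (white blood cell). For the endothelial miRs they were -0.26 to -0.11. Stellate and mesenchymal miRs went both ways, from -0.32 to 0.47, which their sum does not show. None of the 15 markers tested in these lists and for hepatocytes was called, and their part in the *miR-125a-5p* values was not tested.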

How the data were processed

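Small RNA libraries (Illumina TruSeq Small RNA) were made from total RNA of 5 WT and 7 Mir483Pat-KO livers at E18.5. The authors aligned and counted reads with miRge 3.0, and deposited whole-number counts per mature miR without normalization. The processing notes name GRCm38, while adapter trimming and the miR reference were not given in the sources used here. No per-sample column was left unused.

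The members and lists were chosen with earlier results of these data known. Named miRs were all 7 members, the other arms of their clusters, miRs of the table with a member's seed, and for *miR-125a-5p* and *miR-99b-5p* the 3 miRs of highest r. Members were matched by name in the table.

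The whole table was filtered (filterByExpr by genotype, at least 10 counts, 15 in total), scaled by TMM and tested with edgeR 4.0.16 (R 4.3.3) by the quasi-likelihood F-test, the test the authors name, with genotype alone. Benjamini-Hochberg adjustment ran over all 388 miRs tested, and adjusted p under 0.05 was called. Ratios used log2 counts with 2 added and two-sided exact permutation over 792 splits (smallest p 0.00126). Correlations used log2(CPM + 1) and 100000 permutations within genotype. Alternatives were DESeq2 1.42.0, limma-voom 3.58.1, other scalings, filters and designs, and leaving out each fetus. Code was tested on simulated data. Each library is a separate animal by its label number, and totals were 658665 to 1211160 counts.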

Additional observations from a re-analysis of the deposited data

Results flagged for a closer look

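The log2 ratio of *let-7e-5p* over *miR-125a-5p* in WT 2 was 2.02, below the other WT libraries at 2.24 to 2.32, a gap wide for the range of the group. Of 34 groups of samples examined in this way it was the only one, and chance gives about 1 in 20.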

How the results depend on the processing

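*miR-125a-5p* kept its negative sign under all 13 alternatives. The number of members called rose from 0 to 1, always *miR-125a-5p*, with RLE scaling (-0.36), library size alone (-0.41), TMM without *miR-483* and the 2 most abundant miRs (-0.37), at least 10 counts in every library (-0.36), DESeq2 (-0.36) and limma-voom (-0.35). Leaving out each fetus gave 0 to 1 members called and -0.39 to -0.30 for *miR-125a-5p*, called in 4 of 12 fits (without WT 1 or Mir483Pat-KO 1, 2 or 3), with edgeR adjusted p of 0.0331 to 0.134. *miR-99a-5p* and *miR-99b-3p* stayed positive throughout.

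Several values moved or turned sign. With the library index as a covariate, log2 fold changes were 0.041 for *miR-125a-3p*, -0.094 for *miR-99b-5p*, 0.0071 for *let-7e-5p*, 0.12 for *let-7c-5p* and 0.081 for *let-7a-5p*, all with the sign turned. Their standard errors in that fit were 0.50, 0.12, 0.13, 0.10 and 0.083 in the same order, with edgeR adjusted p of 0.980 to 0.988. The log2 ratio difference was then -0.035 for *miR-125a-5p* over *miR-99b-5p*, with its sign kept, 0.17 for *miR-125a-5p* over *miR-125b-5p* and 0.11 for *let-7e-5p* over *miR-99b-5p*. *miR-99b-5p* was -0.028 with library size alone, and *let-7e-3p* -0.30 with limma-voom. *let-7e-3p* was listed at 0 reads in Mir483Pat-KO 2 and at 15 to 32 in the other libraries. Without Mir483Pat-KO 2 its log2 fold change was 0.26 (edgeR, standard error 0.24). Within the lower animal-number range, ratio differences were -0.29 (*miR-125a-5p* over *miR-99b-5p*) and 0.19 (*let-7e-5p* over *miR-125a-5p*), with the sign kept, and 0.024 (*miR-99b-5p* over *miR-99a-5p*), -0.16 (*miR-100-5p* over *miR-99a-5p*) and 0.099 (*miR-125a-5p* over *miR-125a-3p*), with the sign turned. The ratio of *miR-100-5p* contains counts of 0, so its sign was not read. With 4 livers against 4 the smallest exact p is 0.0286, so an adjusted p of 0.05 over the 9 was out of reach for a single ratio there. The r of *miR-99a-5p* with *let-7c-5p* was 0.12 without the 2 libraries farthest from the median. The causes were not tested.

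Leaving out each fetus gave log2 fold changes of -0.21 to 0.0029 for *miR-125b-5p*, -0.0023 to 0.10 for *miR-99b-5p*, -0.12 to 0.26 for *let-7e-3p*, -0.16 to 0.031 for *miR-125b-2-3p* and -0.065 to 0.18 for *miR-99a-3p*. The ratio difference of *miR-125a-5p* over *miR-99b-5p* was -0.44 to -0.34 and that of *let-7e-5p* over *miR-125a-5p* 0.19 to 0.27, each past the threshold over the 9 ratios in 7 of 12 cases and in none that left out a WT library. That of *miR-99b-5p* over *miR-99a-5p* was -0.13 to 0.0070.

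Replicate numbers mark different animals, and same-numbered livers did not deviate together (correlations -0.22 to 0.22). The replicate block gave -0.30 for *miR-125a-5p* (edgeR adjusted p = 0.294), -0.34 for its ratio to *miR-99b-5p*, -0.0098 for *let-7e-3p*, and 0 members called. Low read counts limit *miR-125a-3p* (10 to 32 a library), *miR-125b-5p* (18 to 44) and *miR-100-5p* (0 to 16).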
